A study of Mus musculus with 30 samples.

Results

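The small nucleolar and small Cajal body RNAs of mouse embryonic stem (ES) cells were compared between a line without Tdg, the gene of thymine DNA glycosylase, and its floxed counterpart. The members were chosen by name, as the gene symbols that begin with Snord, Snora or Scarna, which gave 102 of the 20286 symbols in the expression tables. Of these, 63 were Snord, 31 Snora and 8 Scarna symbols. The group was proposed with FPKM changes of these genes already known, so those changes are given as a description. The first set of cells is Tdg -/- ES cells and the second is Tdg fl/fl ES cells, both labelled with the strain C57BL/6-ICR. Each genotype had 2 libraries of polyA RNA read at 51 bp, and the deposited tables hold 1 FPKM value (mapped fragments scaled to transcript length and library size) for each gene and genotype. The labels do not say which part of Tdg was deleted or whether each genotype was 1 clone.

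Small nucleolar RNAs are short guide RNAs. Box C/D RNAs have symbols in Snord, and many of them pair with ribosomal RNA and direct fibrillarin to methylate ribose. Box H/ACA RNAs have symbols in Snora, and many of them direct dyskerin to turn uridine into pseudouridine. Small Cajal body RNAs, with symbols in Scarna, guide the same reactions on spliceosomal RNAs. In mammals most of them lie in introns of other genes and are cut out of the host transcript after splicing, and the mature RNAs carry no polyA tail. Libraries selected for polyA are therefore not made for such RNAs. Whether reads were counted by strand is not stated, and reads of a small RNA and of the host transcript that overlaps it cannot be told apart.

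Since each genotype has 1 value per gene, no spread between replicates can be given and no difference below was tested. The depth is unknown, so no counting interval can be had either. Tdg itself stood at 9.48 FPKM in Tdg -/- cells and 22.1 FPKM in fl/fl cells, a value over the whole gene that does not show the deletion itself. The ES cell markers were high in both genotypes, with Pou5f1 at 612 FPKM in Tdg -/- and 631 FPKM in fl/fl cells, and 8 of 10 markers of differentiated cells were under 1 FPKM in both.

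Most of the small RNAs were listed above 0. Of the 102, 83 reached 1 FPKM in at least 1 genotype and are called measured here. That is 81.4% of the members, where 59.4% of all symbols reached it. The share was 30 of 31 for Snora, 48 of 63 for Snord and 5 of 8 for Scarna. In both genotypes 74 members reached 1 FPKM. A further 5 stayed between 0 and 1 FPKM, and 14 were listed at 0 in both. An exact 0 in these tables can be a failed estimate, so it is not read as absence of the RNA.

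The members had low to middling levels. Among the measured ones the median was 6.74 FPKM in Tdg -/- cells and 7.88 FPKM in fl/fl cells, against 11.4 and 11.6 FPKM over all measured genes in Tdg -/- and fl/fl cells. Their values summed to 1103 FPKM in Tdg -/- and 1168 FPKM in fl/fl cells, or 0.259% and 0.262% of the table totals. The 12 highest members held 630 FPKM of the sum in Tdg -/- cells and 640 FPKM in fl/fl cells. These 12, of which 10 were box C/D RNAs, thus held more than all the other members together in either genotype.

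Snord47, the highest by its mean, was at 132 FPKM in Tdg -/- and 82.9 FPKM in fl/fl cells (log2 change 0.66). All log2 changes here are of Tdg -/- over fl/fl cells after 1 FPKM was added to both values, a scale on which changes of low genes come out too small. Snord47 lies in Gas5, a non-coding gene that carries many box C/D RNAs and whose own level was 186 FPKM in Tdg -/- and 171 FPKM in fl/fl cells (0.12). Snord96a came next, with 67.9 FPKM in Tdg -/- and 113 FPKM in fl/fl cells (-0.73). Snord22, whose frog counterpart is needed to process the small ribosomal subunit RNA, had 68.1 FPKM in Tdg -/- and 72.6 FPKM in fl/fl cells (-0.09). Snord47 thus ranked first in Tdg -/- cells and Snord96a first in fl/fl cells, while Snord22 was near equal.

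Snord12 stood at 56.6 FPKM in Tdg -/- and 69.5 FPKM in fl/fl cells (-0.29). Snord19 stood at 55.8 FPKM in Tdg -/- and 67.8 FPKM in fl/fl cells (-0.28). Snord52 stood at 37.5 FPKM in Tdg -/- and 62.3 FPKM in fl/fl cells (-0.72). All 3 were lower in Tdg -/- cells, by different amounts. Snord69, which shares its host gene with Snord19, was instead higher, with 39.7 FPKM in Tdg -/- and 32.2 FPKM in fl/fl cells (0.29). Snord104 stood at 13.7 FPKM in Tdg -/- and 27.3 FPKM in fl/fl cells (-0.94), just inside 2-fold.

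Box H/ACA RNAs among the 12 were close to equal. Snora65, a guide of pseudouridine in the large ribosomal subunit RNA, stood at 47.4 FPKM in Tdg -/- and 49.2 FPKM in fl/fl cells (-0.05). Snora64, another such guide, stood at 20.6 FPKM in Tdg -/- and 22.5 FPKM in fl/fl cells (-0.12). Snord58b is listed in 2 rows, at 11.6 and 16.2 FPKM in Tdg -/- cells and at 0 and 19.0 FPKM in fl/fl cells. Summed, it was higher in Tdg -/- cells (0.53), but its highest row alone was lower there (-0.22), so its direction depends on the handling of rows.

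At least a 2-fold difference, that is a log2 change of 1 or more in size, was seen for 9 of the 83 measured members. In Tdg -/- cells 6 were higher, 7.23% of those measured, where 0.183% of all measured genes were, and 3 were lower, 3.61%, where 0.174% of all measured genes were. Nothing is read from these counts beyond a description. Of the 9, 4 were listed at 0 in 1 genotype. Without members listed at 0 in 1 genotype, 4 were higher and 1 was lower.

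Snord37, a box C/D RNA in an intron of the translation elongation factor gene Eef2, had the largest log2 change with 1 FPKM added. It stood at 63.0 FPKM in Tdg -/- and 21.1 FPKM in fl/fl cells (1.53). Its host was nearly level, with 1377 FPKM in Tdg -/- and 1253 FPKM in fl/fl cells (0.14). Snord37 was the one member of at least 20 FPKM that passed 2-fold, and it alone passed with a pseudocount of 5. With a pseudocount of 0.1, Snora69 (1.86) and Snord110 (-1.62) lay further from 0 than Snord37 (1.57). So did Scarna10, Snora19, Snora20 and Snord11, which were listed at 0 in 1 genotype.

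Of the other higher members, Snora69 lies in the ribosomal protein gene Rpl39 and stood at 4.68 FPKM in Tdg -/- and 1.22 FPKM in fl/fl cells (1.36). Snord73a, a box C/D RNA in the ribosomal protein gene Rps3a, stood at 4.79 FPKM in Tdg -/- and 1.55 FPKM in fl/fl cells (1.18). Scarna2, which in human cells guides methylation of the U2 spliceosomal RNA, stood at 7.32 FPKM in Tdg -/- and 2.42 FPKM in fl/fl cells (1.28). These 3 lay under 10 FPKM in both genotypes. Rpl39 was at 1831 FPKM in Tdg -/- and 1805 FPKM in fl/fl cells, and Rps3a at 1499 FPKM in Tdg -/- and 1549 FPKM in fl/fl cells. No gene of the tables contains Scarna2 in the annotation used, so it has no host value to set beside it.

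On the lower side, Snord110, a box C/D RNA in the gene of the core C/D protein Nop56, stood at 1.56 FPKM in Tdg -/- and 5.01 FPKM in fl/fl cells (-1.23). Nop56 itself was at 212 FPKM in Tdg -/- and 218 FPKM in fl/fl cells (-0.04). Another RNA of the same gene, Snord57, was at 5.89 FPKM in Tdg -/- and 7.49 FPKM in fl/fl cells (-0.30).

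The remaining 4 were listed above 0 in 1 genotype only, each close to 1 FPKM there. Scarna10 stood at 1.23 FPKM and Snora19 at 1.09 FPKM in Tdg -/- cells, and both were listed at 0 in fl/fl cells. Snord11 and Snora20 were listed at 0 in Tdg -/- cells, against 1.23 and 1.19 FPKM in fl/fl cells. No fold is given against a value of 0. The host genes of these 4 were expressed in both genotypes, from 72.9 FPKM for the condensin gene Ncapd2 to 186 FPKM for the chaperonin gene Tcp1 in Tdg -/- cells, and from 80.6 to 205 FPKM for the same genes in fl/fl cells.

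**Figure D1:**
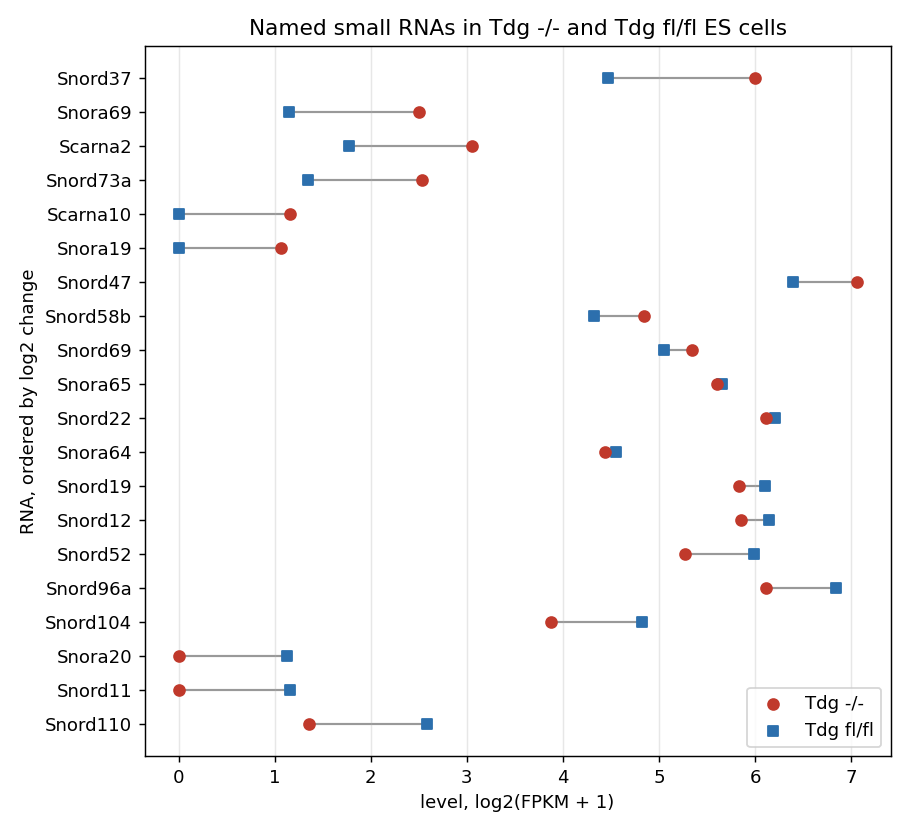
Levels of the 20 named small RNAs as log2(FPKM + 1) on the horizontal axis, ordered down the page by log2 change, with 1 red circle for Tdg -/- and 1 blue square for fl/fl cells. Snord37 is the one RNA of at least 20 FPKM past 2-fold, and 4 of the others past 2-fold lie at 0 in 1 genotype.

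The remaining 63 measured members ran from 0.755 to 21.1 FPKM in Tdg -/- cells and from 0.362 to 23.2 FPKM in fl/fl cells. Their log2 changes lay between -0.83 and 0.74, with 25 above 0 and 38 below.

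The changes of the small RNAs were spread widely on both sides of 0. Their SD was 0.57 on the log2 scale, against 0.22 over all measured genes, and the median size of a change was 0.34 against 0.12. A change of 0.5 or more in size on the log2 scale was seen for 30 of 83 members (36.1%), where 3.45% of all measured genes had one. In Tdg -/- cells 13 were higher by that amount (15.7%), where 1.82% of all measured genes were, and 17 were lower (20.5%), where 1.63% were. The middle of the distribution was close to that of other genes, with a median of -0.11 for the members and -0.02 for all measured genes. Members below 0 numbered 49 of 83 (59.0%), where 54.9% of all measured genes were below 0.

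The wide spread was present at each level. Among members whose higher value was 1 to 5 FPKM, the SD was 0.64 over 30 members, against 0.24 over 3197 other genes. From 5 to 20 FPKM it was 0.46 over 38 members, against 0.21 over 4611 other genes. At 20 FPKM and over it was 0.65 over 15 members, against 0.20 over 4162 other genes. The members outside the 5th to 95th percentile of the other genes in their level class numbered 16 of 30, 17 of 38 and 10 of 15. How far read number, gene length or the assignment of reads between a small RNA and its host enters these spreads was not tested.

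**Figure D2:**
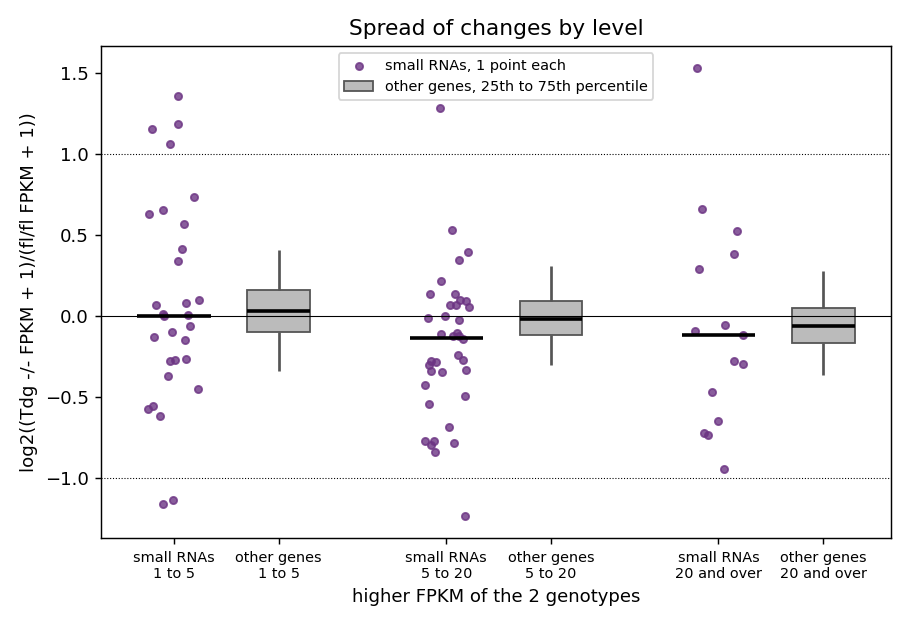
Log2 change of each measured small RNA (points) beside the other genes in the same class of level (box from the 25th to the 75th percentile, lines to the 5th and 95th), with black bars at the medians and dotted lines at 1 and -1. The small RNAs reach beyond the lines of the other genes on both sides in all 3 classes, with SDs of 0.64, 0.46 and 0.65 against 0.24, 0.21 and 0.20.

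The classes of small RNA differed in spread and position. Over the 48 measured Snord members the median log2 change was -0.06 with an SD of 0.59, and 22 of 48 passed 0.5 in size. Over the 30 measured Snora members the median was -0.25 with an SD of 0.47, and 5 of 30 passed 0.5. Of these 30, 21 were below 0, where 54.9% of all measured genes were. Over all measured genes, 3.45% passed 0.5 in size. The 5 measured Scarna members ran from -0.61 to 1.28, each at 7.32 FPKM or less in both genotypes. Scarna17 was at the low end, and Scarna8 and Scarna6 had log2 changes of 0.34 and -0.06. The differences between classes were not tested.

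Host genes could be placed beside 75 of the 83 measured members. A host is taken here as the shortest gene of the tables whose span contains the small RNA, and 58 genes served as hosts. They were 47 protein-coding genes, 20 of which encode ribosomal proteins, and 11 non-coding genes. Hosts were highly expressed, with a median of 170 FPKM in Tdg -/- and 170 FPKM in fl/fl cells, and 74 of the 75 members lay below their host in both genotypes. A member had a median of 2.74% of the FPKM of its host in Tdg -/- cells and 2.66% in fl/fl cells.

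The hosts lay much closer to 0 than the RNAs they contain. Over the 57 hosts that were measured the SD of the log2 change was 0.12, with a range from -0.39 to 0.25, and none passed 0.5 in size. Their median was -0.06. It was 0.01 after quantile normalization, so the direction of this median depends on the scaling. The 75 members with a host had an SD of 0.56, and 57 of the 75 were further from 0 than their host. Genes other than the small RNAs at 20 FPKM and over had an SD of 0.20. Members and hosts differ in level and length, and how far this enters the difference in spread was not tested. The direction matched that of the host for 42 of 75. Below 0 were 44 of the 75 members and 42 of the 57 measured hosts. How many would match with unrelated directions was not tested. Across these 75 members, several of which share a host, the log2 changes of member and host had a Pearson's r of 0.06 and a Spearman's rho of 0.05, and the levels had 0.24 and 0.28. Both values of a pair come from the same libraries and may share reads.

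**Figure D3:**
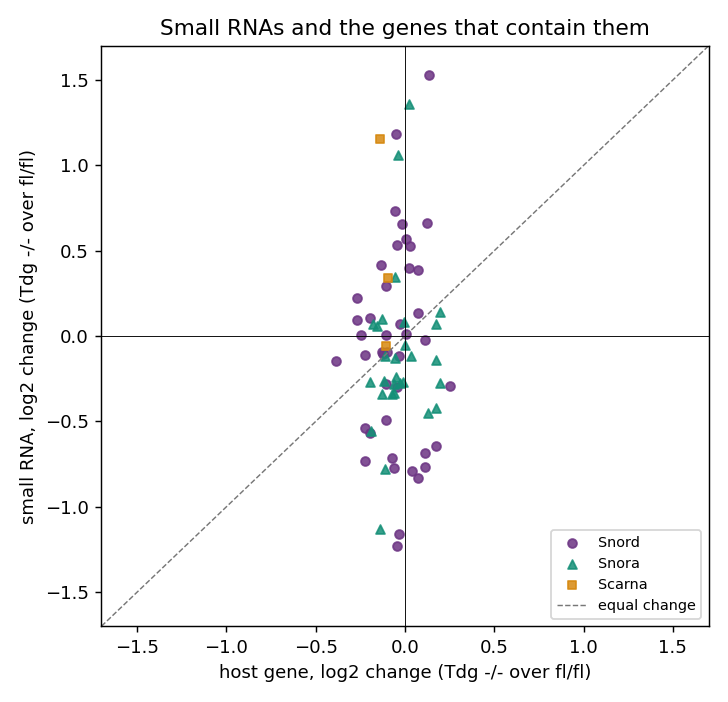
Log2 change of 75 small RNAs (vertical axis) against that of the gene that contains each (horizontal axis, same scale), with 1 symbol per class. The points form a narrow upright band, from -0.39 to 0.25 for hosts and from -1.23 to 1.53 for the small RNAs, and do not follow the dashed line of equal change.

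Members were also grouped by the type of host. The 18 members in non-coding hosts had a median log2 change of -0.28, while the 10 measured non-coding hosts had a median of 0.08. Of the 18 members 14 were below 0, where 54.9% of all measured genes were. Snord49a, Snord49b, Snord65, Snord1b and Snord1c among them lie on chromosome 11, whose genes tended to lie lower, and 4 others share Snhg12. The 57 members in protein-coding hosts had a median of -0.06, as did the 47 hosts themselves. Snord12 lies in the non-coding 1500012F01Rik, now named Zfas1, which stood at 84.7 FPKM in Tdg -/- and 71.1 FPKM in fl/fl cells (0.25). In Snhg6, which stood at 145 FPKM in Tdg -/- and 141 FPKM in fl/fl cells, Snord87 had 5.70 FPKM in Tdg -/- and 10.6 FPKM in fl/fl cells (-0.79). Snord87 and the members named by host in what follows were chosen after their values were seen.

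Small RNAs of 1 host differed in their changes. Of the hosts, 14 held 2 or more measured members, 31 in all, and in 7 of the 14 the members lay on both sides of 0. The median range within a host was 0.56, beside an SD of 0.57 over all measured members. Members of different hosts were not compared in the same way, so the part of a shared host in these ranges was not tested. In Snhg12, a non-coding host at 43.1 FPKM in Tdg -/- and 38.1 FPKM in fl/fl cells (0.17), the log2 changes were -0.64 for Snord99, -0.42 for Snora16a, -0.14 for Snora44 and 0.07 for Snora61. Snord99 stood at 13.9 FPKM in Tdg -/- and 22.4 FPKM in fl/fl cells. Snora61 stood at 15.4 FPKM in Tdg -/- and 14.6 FPKM in fl/fl cells. The same host thus held an RNA near equal in both genotypes and another lower in Tdg -/- cells.

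The closest pairs were Snord42b and Snord4a in Rpl23a, at 0.09 and 0.22, and Snord95 and Snord96a in Gnb2l1 (Rack1), at -0.54 and -0.73. Gnb2l1 itself was at -0.23, and Rpl23a at -0.27, opposite in sign to its RNAs.

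**Figure D4:**
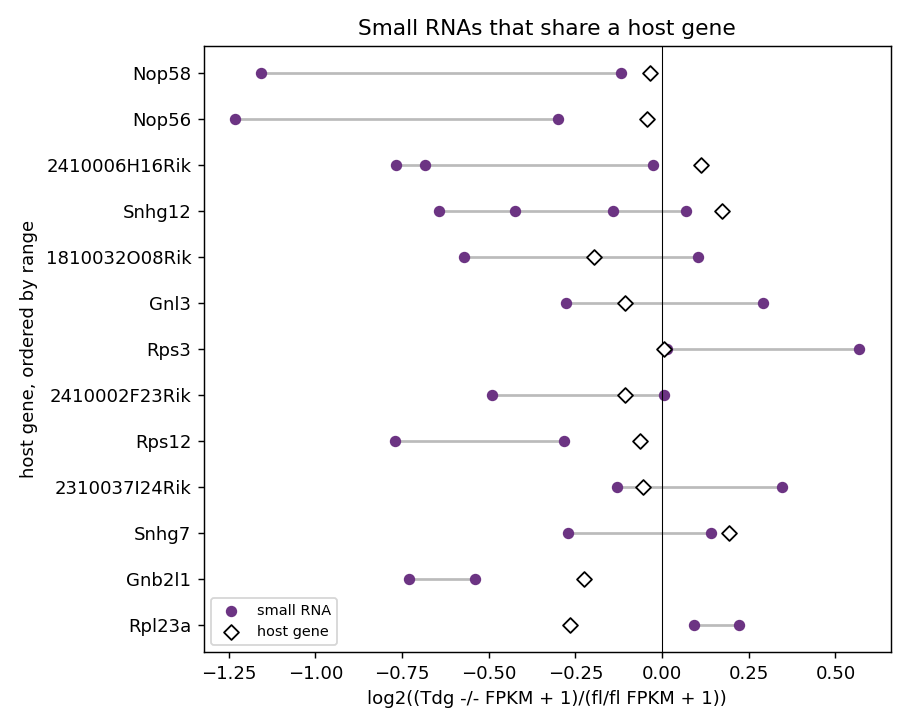
Log2 change of small RNAs (filled points, joined by a line) and of the host gene (open diamond) for 13 of the hosts with 2 or more measured small RNAs, ordered by the range within the host. The ranges reach 1.04 in Nop58, where Snord11 is listed at 0 in Tdg -/- cells, and 0.93 in Nop56, and in 6 of the 13 hosts the points lie on both sides of 0.

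Genes of chromosome 11 tended to lie lower in Tdg -/- cells. Its 986 measured genes other than members had a median log2 change of -0.21, against -0.01 on the other chromosomes. Of these genes 828 were below 0 and 67 were at -0.5 or lower. The 13 measured members on it had a median of -0.27, with 9 below 0 and 6 past -0.5, namely Snord104, Snord49a, Snord96a, Snord49b, Snord1b and Snord95. Snord49a stood at 10.0 FPKM in Tdg -/- and 17.8 FPKM in fl/fl cells. Its host 2410006H16Rik was slightly higher instead, at 155 FPKM in Tdg -/- and 143 FPKM in fl/fl cells (0.11), and the remaining RNA of that host, Snord65, was at -0.03. The 70 members elsewhere had a median of -0.10 and an SD of 0.59, and all 9 members past 2-fold were among them. What chromosome 11 contributes to the members on it cannot be told apart from the genotype.

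The 14 members at 0 in both genotypes were Scarna9, Snora35 and 12 Snord symbols. For 12 of the 14 the host reached 1 FPKM, in some cases at very high levels. Snord43 was listed at 0 while its host Rpl3 stood at 1485 FPKM in Tdg -/- and 1464 FPKM in fl/fl cells. Snord83b of the same gene was measured, at 1.08% of the FPKM of Rpl3 in Tdg -/- and 0.817% in fl/fl cells. Snord68 in Rpl13, Snord42a in Rpl23a and Snord82 in the nucleolin gene Ncl were also at 0. Snord64, Snord116l1 and Snord116l2 lie in the imprinted Snhg14 transcript (C230091D08Rik), which stood at 9.40 FPKM in Tdg -/- and 8.82 FPKM in fl/fl cells. Snora35 lies in the serotonin receptor gene Htr2c, which was itself at 0. Snord116, Snord116l1 and Snord116l2 are listed in 10 rows, all at 0.

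The mRNAs of proteins that work with these RNAs were also examined. Of 32 listed genes for proteins of the particles, their assembly and Cajal bodies, 28 were below 0, where 54.9% of all measured genes were. Their median was -0.13, against -0.02 over all measured genes. At 20 FPKM and over, where 24 of the 32 lay, the median of genes other than the small RNAs was -0.06, with 2705 of 4162 below 0. None differed 2-fold. Fibrillarin (Fbl), the methyltransferase of the C/D particle, stood at 134 FPKM in Tdg -/- and 155 FPKM in fl/fl cells (-0.21). Dyskerin (Dkc1), the pseudouridine synthase of the H/ACA particle, stood at 92.4 FPKM in Tdg -/- and 98.3 FPKM in fl/fl cells (-0.09). Both core enzymes lay within 0.25 of equal.

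The lowest of the list were Znhit3, an assembly factor of C/D particles (-0.58), Nhp2 of the H/ACA core (-0.54) and Coil, which encodes the Cajal body scaffold coilin (-0.50). Nhp2 stood at 90.7 FPKM in Tdg -/- and 132 FPKM in fl/fl cells, and Coil at 21.5 FPKM in Tdg -/- and 30.9 FPKM in fl/fl cells. Gemin4 (-0.43), Gemin5 (-0.43), Npm1 (-0.34), Ruvbl1 (-0.26) and Wrap53 (-0.26) followed. All of these 8 but Ruvbl1 lie on chromosome 11. Without chromosome 11 the median of the list was -0.11.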

How the data were processed

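The authors deposited 2 tables of FPKM, 1 value for each gene row and genotype, from 2 polyA RNA libraries per genotype. TopHat 1.4.1, Cufflinks 1.3.0 and mm9 are named in the submitters' processing notes. No source used here says how the libraries were combined. Reads were 51 bp and single, per the labels' protocols. Rows of 1 symbol were summed (20437 rows, 20286 symbols). Of 2176 rows under 0.1 FPKM in both tables, 36 had the ratio 0.661, the most frequent other than 1. Its halved value was found in 7 rows. No read numbers could be recovered, so depth is unknown.

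Log2 changes used a pseudocount of 1; genes with at least 1 FPKM in either genotype were measured. With 1 value per genotype no test was run. Names, chromosomes and host genes (the shortest gene of the tables containing the member; strand was not used) came from RefSeq on GRCm38.p6, which matched all 102 members. As it is not the build of the files, no coordinates are given and the region lists were not used here. Sequences of the members were not used here. Named members are those past 2-fold, the 12 highest by mean FPKM and those at 0 in 1 genotype; of the protein list, the 8 with the largest change and the core enzymes. Fbl, Dkc1 and other members named in the text were chosen after their values were seen. Alternatives were other pseudocounts, other minimums, median centring, quantile normalization, leaving out chromosome 11 and the highest row of each symbol. Members and lists were chosen with earlier results of these data known. Calculations ran in Python 3.11.15 with pandas 2.3.3 and were tested on simulated data. 1 host gene is not reported here by name.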

Additional observations from a re-analysis of the deposited data

How the results depend on the processing

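The size of the members' spread depends on the pseudocount: the SD was 1.03 with a pseudocount of 0.1 and 0.35 with one of 5. The counts past 2-fold depend on it too. With a pseudocount of 5, 1 member was higher and 0 were lower. With a minimum of 5 FPKM, 2 were higher and 1 lower, and 53 members were measured. Without members listed at 0 in 1 genotype, chosen after seeing the data, 1 was lower. The median of host genes was 0.012 after quantile normalization. With the highest row of each symbol, Snord58b was at -0.22. In 47 further combinations of a summary value and an alternative, the value kept its direction or stayed within 1.5 times. No paired analysis was possible because each genotype has 1 deposited value per gene, and for the same reason no library could be left out. With unknown depth, no counting interval can be had for any member, whether near 1 FPKM or above it.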

Other observations

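Other short or non-polyadenylated transcripts in the same tables can be set beside these RNAs. Of the 124 microRNA genes listed, 81 reached 1 FPKM, and their log2 changes had an SD of 0.57 and a median of -0.04. In Tdg -/- cells 24 of the 124 were listed at 0, and in fl/fl cells none was. Over all symbols 478 were at 0 in Tdg -/- cells alone and 525 in fl/fl cells alone. Mir142, Mir194-1 and Mir3070b were among the 24, at 0 in Tdg -/- cells, against 4.94, 2.48 and 1.93 FPKM in fl/fl cells. None of the 124 was at 0 in both genotypes, where 1785 of the 20286 symbols were. Whether microRNA genes were listed only with a value in fl/fl cells is not known, so the 24 are not read as a loss. The 28 measured replication-dependent histone genes, whose mRNAs end without a polyA tail, had a median of -0.23 with an SD of 0.22. Of these, 25 were below 0, where 54.9% of all measured genes were. All 28 reached 1 FPKM in fl/fl cells but only 17 did in Tdg -/- cells. The others, Hist1h1a among them, were measured only through the genotype where they are higher, so the minimum itself feeds the count below 0. Hist1h1a had the lowest log2 change (-0.68), at 0.677 FPKM in Tdg -/- and 1.69 FPKM in fl/fl cells. Of the 10 other small non-coding RNA genes listed, 3 were measured. Rnu73b had the largest change of these, at 8.16 FPKM in Tdg -/- and 5.33 FPKM in fl/fl cells (0.53). The annotation used gave it no chromosome, and whether it is itself a small nucleolar RNA was not checked. Rmrp, the RNA of RNase MRP, stood at 53.2 FPKM in Tdg -/- and 49.1 FPKM in fl/fl cells (0.11). Rpph1, the RNA of RNase P, stood at 14.8 FPKM in Tdg -/- and 14.6 FPKM in fl/fl cells (0.02). Among the symbols that RefSeq matched, it calls 3 further ones outside the Snord, Snora and Scarna names small nucleolar RNAs. Of these, Gm12238 was at 1.11 FPKM in Tdg -/- cells and listed at 0 in fl/fl cells, and AF357355 and AF357359 were at 0 in both.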
